A study of Mus musculus with 2 samples.

Results

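The mouse mitochondrial genome was described here through 43 rows of the deposited gene tables, of 43346 rows for mouse Ensembl genes. They were the 37 genes that the GENCODE M21 annotation places on chromosome M, namely 2 rRNAs, 13 mRNAs and 22 tRNAs, and 6 nuclear pseudogenes of chromosome 1 that copy some of them. Members were chosen by chromosome and by name, with earlier results of these data known. The RNA came from hearts of B6NCrl mouse embryos at 12.5 days, with male and female embryos pooled and no treatment or altered allele given. The 2 libraries, called biological replicates 1 and 2 in the labels, form 1 group, so no condition could be compared and no p-value is given. The smallest p that an exact sign test could reach with 2 libraries is 0.5. Each library started from 10 ng of RNA longer than 200 nt and held 34751234 and 31847875 estimated reads, of which 33480066 and 30665239 lay on mouse genes.

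Mitochondrial DNA is a small circle that is transcribed from both strands into long precursors. Most of the rRNAs and mRNAs in these precursors are separated by tRNAs, and cutting out the tRNAs releases them. The mRNAs then receive poly(A) tails and are translated inside the organelle into core subunits of respiratory chain complexes I, III and IV and of the ATP synthase, also called complex V. All other subunits come from nuclear genes. The heart depends on this chain for ATP and is rich in mitochondria after birth, while the embryonic heart still relies strongly on glycolysis. Pieces of mitochondrial DNA have also been inserted into nuclear chromosomes during evolution, and such insertions can match the mitochondrial gene base for base.

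The tissue label was checked against marker genes. Cardiac actin, Actc1, stood at 9860 and 9751 TPM in replicates 1 and 2, cardiac troponin T, Tnnt2, at 4347 and 4464 TPM, and the heart field factor Nkx2-5 at 164 and 172 TPM. TPM is a level per effective length, scaled so that every library has the same total. The embryonic globin Hbb-y, a red cell gene, stood at 27205 and 24177 TPM, and the endothelial gene Pecam1 at 55.6 and 59.4 TPM. The liver gene Afp was the marker that differed most in proportion between the libraries, at 99.3 and 18.2 TPM. The liver genes Alb (9.23 and 1.85 TPM) and Apoa1 (20.35 and 6.65 TPM) were also higher in replicate 1. The part of this difference in the values below was not tested. In such bulk tissue, fewer cells of a type and less RNA per cell cannot be told apart.

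The 6 pseudogenes lay side by side on the minus strand of chromosome 1, from 24612407 to 24616197 in mm10. In the order in which they would be read, Gm29216 matched the end of mt-Co1, Gm28661 matched mt-Co2, Gm10925 matched mt-Atp6, Gm28437 matched mt-Co3, Gm28438 matched mt-Nd3 and Gm10222 matched mt-Nd4l. This is the order of the 6 genes on the mitochondrial genome, where they run from mt-Co1, which starts at 5328, to mt-Nd4l, which ends at 10173. In 4 of the 6 pairs the aligned bases held no substitution, over 681 bases in Gm28661, 678 in Gm10925, 783 in Gm28437 and 294 in Gm10222. All but Gm29216 start with the first base of the gene, and these 5 copies are 1 to 3 bases shorter than their gene. Gm29216 aligned over its last 483 bases to bases 1063 to 1545 of mt-Co1.

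The other pairs each held 1 substitution within their aligned bases. Positions are counted from 1 at the first base of the mitochondrial gene, with the base of the gene first and that of the copy last. In mt-Nd3 the substitution is T3C, in the start codon, and in mt-Co1 it is A1066T, at the fourth base of the alignment. The stretches around both sites are given 5′ to 3′ from the GENCODE M21 transcripts, with the base substituted within the alignment in capitals. In Gm29216 the first 9 bases shown lie before its alignment to mt-Co1, and several of them also differ from the gene, in lower case here. Gm29216 aligned to no base of mt-Co1 before 1063.
mt-Nd3: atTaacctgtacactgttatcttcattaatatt
Gm28438: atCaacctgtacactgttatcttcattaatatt
mt-Co1: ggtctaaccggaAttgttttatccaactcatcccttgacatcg
Gm29216: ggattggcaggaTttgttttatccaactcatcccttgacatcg

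The pair of mt-Co3 and Gm28437 shows the other case, in which the aligned bases are the same and the gene has an additional last base, in capitals. That base is a T, which the poly(A) tail completes to a stop codon.
mt-Co3: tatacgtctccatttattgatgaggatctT
Gm28437: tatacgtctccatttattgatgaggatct
Such a length, 1 base more than a multiple of 3, was found in 3 of the 13 mRNA genes, mt-Co3, mt-Nd4 and mt-Cytb. The other 10 lengths were multiples of 3. The first 3 bases were ATG in 9 mRNA genes, and GTG in mt-Nd1, ATA in mt-Nd2, ATT in mt-Nd3 and ATC in mt-Nd5.

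Mitochondrial rows alone took 2.12 ± 0.00508% of mouse gene reads (SD, n = 2). Replicate 1 gave 2.126%, with an exact binomial 95% interval of 2.121 to 2.131%, and replicate 2 gave 2.119%, with an interval of 2.114 to 2.124%. These intervals treat all estimated reads as independent, PCR duplicates included, and are too narrow to the extent that they are not. They allow for no error other than that of counting. Neither the SD nor the intervals cover the division of reads between gene and copy. With posterior mean counts, which divide shared reads differently, the share was 2.158%. With the 6 copies the share was 2.71 ± 0.00493%, at 2.718 and 2.711%. The copies thus held 198321 reads in replicate 1 and 181713 in replicate 2, or 21.8 ± 0.0452% of all reads on members. The 2125 other unprocessed pseudogene rows of the tables together held 20219 and 18823 reads. Since the 6 copies were named with earlier results of these data known, this contrast is a description and not a test. As a share of the TPM of gene rows, members reached 4.28 ± 0.0646% without the copies and 6.01 ± 0.084% with them.

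Of the 43 members, 21 had at least 1 TPM in both libraries, namely all 15 rRNAs and mRNAs and all 6 copies. The same threshold was passed by 31.8% of all Ensembl gene rows, by 57.5% of nuclear protein-coding genes and by 1.84% of the other unprocessed pseudogenes. For the 6 copies, named with earlier results known, these shares are given as background only. The 22 members below it were the tRNAs.

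By class, mRNAs took 80.3 ± 0.046% of the reads on members and rRNAs took 19.7 ± 0.046%, with every copy added to its gene. Without the copies the rRNA share was 25.2 ± 0.0734%, since each copy in the set is that of an mRNA. As shares of TPM, with copies, mRNAs took 89.8 ± 0.0252% and rRNAs 10.2 ± 0.0252%. These are shares of the libraries and not of the RNA in the tissue. How cDNA was primed and whether rRNA was removed are not known, and the part of either step in these shares was not tested.

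All 22 tRNA genes were listed at 0 reads in both libraries, and this 0 is not a measurement of the tRNAs. Their genes are 59 to 75 bases long. The deposited effective length, the number of positions at which a read can start, was the length less 99 bases in every member of 100 bases or more and 0 in every tRNA gene. None of the 28403 rows shorter than 100 bases had a read in either library, and the shortest row with a read was 101 bases long. The libraries also came from RNA longer than 200 nt. The longest and the shortest tRNA gene, for a leucine and a serine tRNA, are shown whole to give that scale.
mt-Tl1: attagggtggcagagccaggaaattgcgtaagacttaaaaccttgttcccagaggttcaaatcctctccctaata
mt-Ts2: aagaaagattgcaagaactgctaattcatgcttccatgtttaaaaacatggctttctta

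The rRNAs have no copy among the members, and their reads were whole numbers with a posterior SD of 0. The posterior SD is the deposited uncertainty, in reads, of how shared reads were divided. mt-Rnr2 (ENSMUSG00000064339.1; chromosome M, 1094 to 2675), the RNA of the large mitoribosome subunit, held 157503 and 144381 reads, the highest number among the members in each library. Its level was 4495 and 4558 TPM. mt-Rnr1 (ENSMUSG00000064337.1; chromosome M, 70 to 1024), the RNA of the small subunit, stood at 1077 and 1091 TPM. mt-Rnr2 was 4.17-fold above mt-Rnr1 in replicate 1 and 4.18-fold in replicate 2, although the 2 genes are neighbours on the same strand with only mt-Tv between them. The labels call the assay total RNA-seq and link the manual of a SMARTer Ultra Low RNA kit. The sources used here do not say how cDNA was primed or whether rRNA was removed, and the part of either step in this ratio was not tested.

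Complex IV, cytochrome c oxidase, has its catalytic core in the products of mt-Co1, mt-Co2 and mt-Co3, and each of these genes shared reads with a copy. mt-Co3 (ENSMUSG00000064358.1; chromosome M, 8607 to 9390) had 33367 reads in replicate 1 and 25202 in replicate 2. Its copy Gm28437 (chromosome 1, 24613189 to 24613971) had 106344 and 99184 reads. The copy thus held 76.1 and 79.7% of the reads of the pair. As rows of the table, Gm28437 ranked 9 and 8 among all Ensembl genes by TPM, and mt-Co3 ranked 44 and 55. The posterior SD was 34639 reads in replicate 1 and 30127 in replicate 2, the same for the gene and for the copy, and exceeded the read number of mt-Co3 itself. The posterior means of gene and copy differed from the estimated reads one by one, giving the copy 60.4 and 63.6%, while their sum was the same. Summed, the pair stood at 8642 and 8512 TPM. The sum of the pair thus differed by less between the libraries than either of its parts did.

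mt-Co2 (ENSMUSG00000064354.1; chromosome M, 7013 to 7696) and Gm28661 (chromosome 1, 24614885 to 24615565) divided their reads almost evenly. mt-Co2 stood at 2621 and 2527 TPM and its copy at 2365 and 2418 TPM, with posterior SDs of 11639 and 9825 reads. The copy's share was 47.3 and 48.8% by estimated reads and 38.8 and 38.7% by posterior means. Their sum was 4986 and 4945 TPM.

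mt-Co1 (ENSMUSG00000064351.1; chromosome M, 5328 to 6872) and Gm29216 (chromosome 1, 24615706 to 24616197) differed from all other pairs in the size of the posterior SD relative to the reads. mt-Co1 had 82059 and 73833 reads and Gm29216 had 35046 and 31712, with posterior SDs of only 141 and 134 reads. Per length the partial copy was above the gene, at 3774 and 3778 TPM against 2402 and 2391 TPM, or 1.57 and 1.58-fold. The sum of both TPM values was 6176 and 6169. It counts the last 483 bases of mt-Co1 on a short copy, so it is a level for that end of the gene. With all reads of the pair spread over the effective length of mt-Co1, the level was 3428 and 3417 TPM.

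ATP synthase takes the products of mt-Atp6 and mt-Atp8, which belong to its membrane part. mt-Atp6 (ENSMUSG00000064357.1; chromosome M, 7927 to 8607) had the highest level of all members, at 8112 and 8555 TPM, and ranked 5 among all Ensembl genes in each library. Its copy Gm10925 (chromosome 1, 24613974 to 24614651) stood at 892 and 743 TPM and held 9.86 and 7.95% of the reads of the pair. The posterior means gave the copy 22.3% in both libraries. The posterior SDs of 14953 and 14864 reads exceeded the copy's own 12199 and 9186 reads. Summed, the pair stood at 9004 and 9298 TPM.

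mt-Atp8 (ENSMUSG00000064356.3; chromosome M, 7766 to 7969) reached 7190 and 7649 TPM from 17838 and 17154 reads. These reads were whole numbers with a posterior SD of 0. The last 43 bases of the gene are also the start of mt-Atp6. They are fewer than the 99 bases by which length exceeds effective length, so no counted read could lie within them alone. The shared bases, in capitals, hold the start of mt-Atp6 and the end of mt-Atp8.
mt-Atp8: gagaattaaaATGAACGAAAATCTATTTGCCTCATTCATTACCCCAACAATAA
mt-Atp6: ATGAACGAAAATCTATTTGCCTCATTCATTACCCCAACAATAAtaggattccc
Both reading frames lie on the same mRNA in mitochondria. Summed mt-Atp6 was 1.25 and 1.22-fold above mt-Atp8. The level of mt-Atp8 rests on an effective length of 105 bases for a gene of 204, the shortest among the mRNAs. By reads per kilobase of the annotated length it fell from the third to the fifth place among the 15 rRNAs and mRNAs.

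Complex I, the NADH dehydrogenase, takes 7 mitochondrial products. mt-Nd1 (ENSMUSG00000064341.1; chromosome M, 2751 to 3707) led them at 3346 and 3342 TPM. mt-Nd3 (chromosome M, 9459 to 9806) stood at 480 and 437 TPM on its own row and its copy Gm28438 (chromosome 1, 24612775 to 24613119) at 1591 and 1715 TPM. The copy held 76.6 and 79.5% of the reads of the pair, with posterior SDs of 396 and 357 reads. Its deposited TPM interval ran from 1421 to 1685 in replicate 1, above that of mt-Nd3, from 341 to 598. The file headers do not give the level of these intervals. Summed, the pair stood at 2072 and 2152 TPM.

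mt-Nd4 (chromosome M, 10167 to 11544) followed at 1436 and 1456 TPM, mt-Nd2 (chromosome M, 3914 to 4951) at 937 and 983 TPM and mt-Nd5 (chromosome M, 11742 to 13565) at 646 and 659 TPM. mt-Nd6 (chromosome M, 13552 to 14070), the only mRNA gene on the minus strand, stood at 767 and 801 TPM. It overlaps the end of mt-Nd5 by 14 bases, and the sources used here do not say whether the libraries keep strand. Its reads therefore cannot be told apart from RNA of the opposite strand.

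mt-Nd4l (ENSMUSG00000065947.3; chromosome M, 9877 to 10173) showed how far the division of reads can move a gene. On its own row it had 87.3 reads in replicate 1 and 346 in replicate 2, or 18.7 and 81.7 TPM, the lowest level of the 15 rRNAs and mRNAs. Its rank among all Ensembl genes went from 6399 in replicate 1 to 1824 in replicate 2. Its copy Gm10222 (chromosome 1, 24612407 to 24612700) held 2966 and 2569 reads, or 97.1 and 88.1% of the pair. The posterior SD of 158 reads in replicate 1 and 509 in replicate 2 exceeded the reads of mt-Nd4l in each. Summed, the pair stood at 662 and 699 TPM.

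mt-Nd4l and mt-Nd4 also lie on a single mRNA, and their frames share the 7 bases in capitals.
mt-Nd4l: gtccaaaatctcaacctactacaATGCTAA
mt-Nd4: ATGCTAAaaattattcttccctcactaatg
From the gene rows alone mt-Nd4 was 77-fold above mt-Nd4l in replicate 1 and 17.8-fold in replicate 2. With the copy added to mt-Nd4l the ratio was 2.17 and 2.08.

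Complex III has a single mitochondrial product, cytochrome b. Its gene mt-Cytb (ENSMUSG00000064370.1; chromosome M, 14145 to 15288) stood at 3345 and 3425 TPM, with whole reads and a posterior SD of 0. In all, 6 members had such undivided reads in both libraries: mt-Rnr1, mt-Rnr2, mt-Nd1, mt-Atp8, mt-Nd6 and mt-Cytb.

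**Figure D1:**
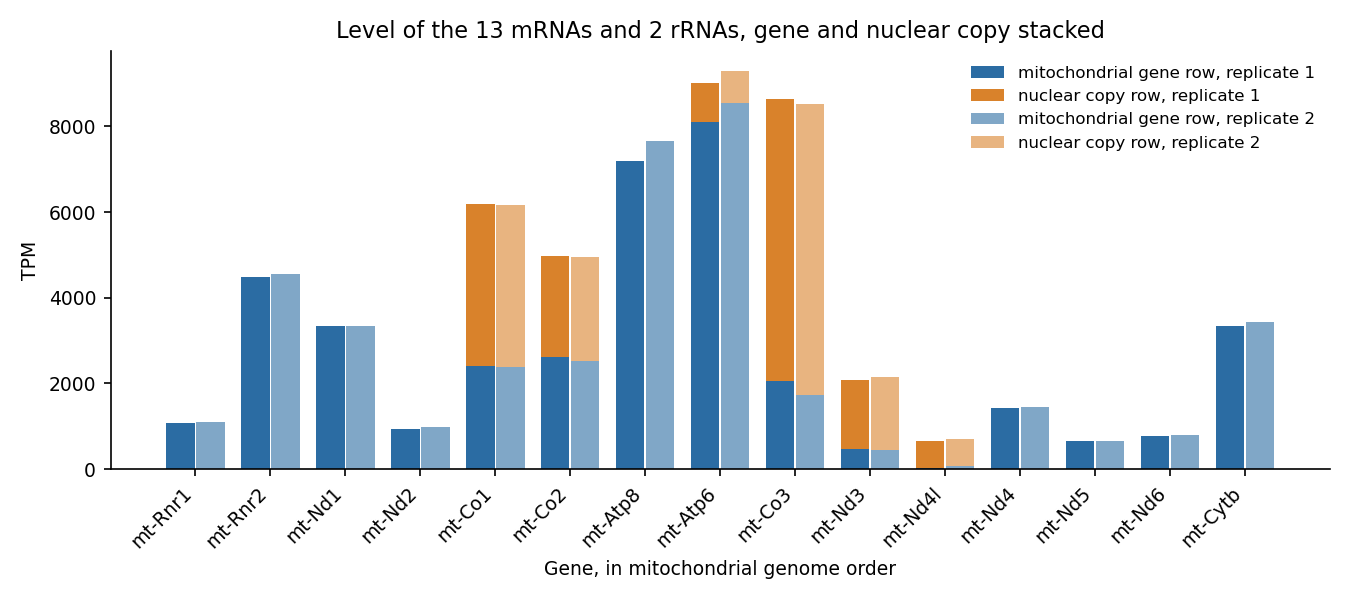
Bars give the TPM of the 13 mRNAs and 2 rRNAs in mitochondrial genome order, with the mitochondrial gene row in blue and its nuclear copy row stacked in orange, for replicate 1 (dark) and replicate 2 (light). The height of each stack is nearly the same in both libraries, while the orange part ranges from 617 TPM on mt-Nd4l to 6789 TPM on mt-Co3.

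Ordered by the summed level, mt-Atp6 came first, at 9151 ± 208 TPM, followed by mt-Co3 (8577 ± 91.9 TPM), mt-Atp8 (7420 ± 325 TPM), mt-Co1 (6172 ± 5.2 TPM) and mt-Co2 (4965 ± 28.9 TPM). The middle held mt-Rnr2 (4527 ± 44.8 TPM), mt-Cytb (3385 ± 56.1 TPM), mt-Nd1 (3344 ± 2.85 TPM), mt-Nd3 (2112 ± 56.7 TPM) and mt-Nd4 (1446 ± 14.1 TPM). The lowest were mt-Rnr1 (1084 ± 10.1 TPM), mt-Nd2 (960 ± 32.6 TPM), mt-Nd6 (784 ± 23.9 TPM), mt-Nd4l (680 ± 25.7 TPM) and mt-Nd5 (653 ± 9.23 TPM). Between neighbours in this order the ranges of the 2 libraries overlapped for mt-Cytb and mt-Nd1, which do not differ beyond their spread, and for no other pair. This spread leaves out errors of length that differ between genes. With all reads of a pair spread over the length of the gene, mt-Co1 moved from the fourth to the sixth place and 12 of the 15 genes kept theirs. From the gene rows alone only mt-Atp6 kept its place, and mt-Co3 moved from the second to the eighth. The highest summed level was 14-fold the lowest, in mt-Atp6 over mt-Nd5.

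**Figure D2:**
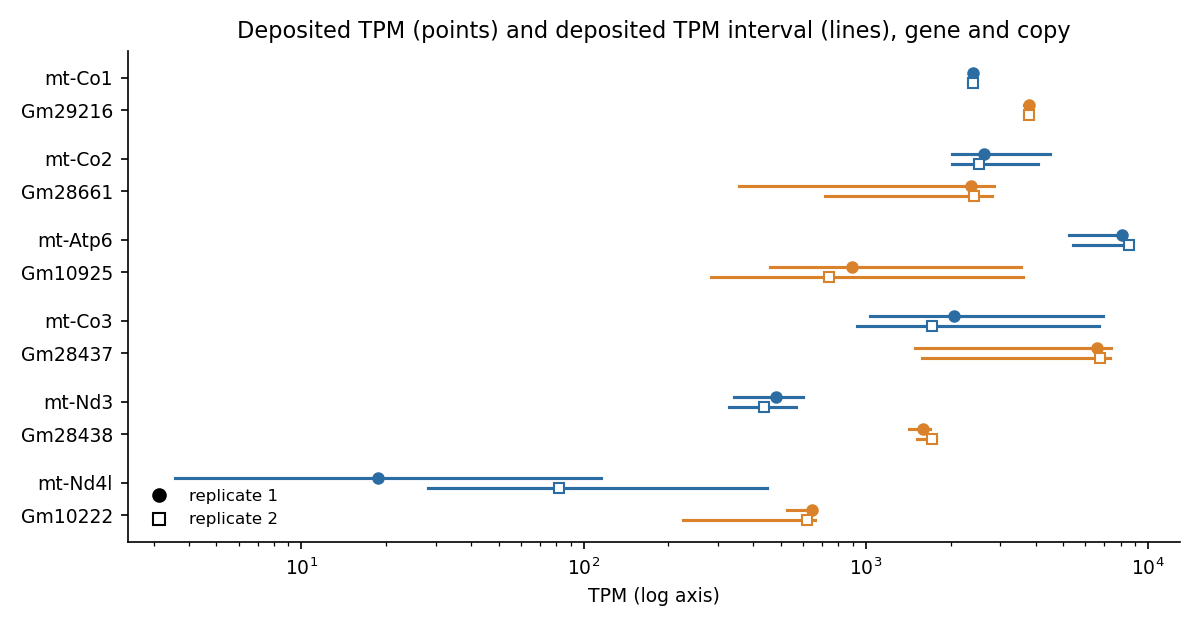
Points give the deposited TPM and lines the deposited TPM interval on a log axis, for each gene (blue) and its copy (orange), with filled circles for replicate 1 and open squares for replicate 2. Intervals of gene and copy overlap in both libraries in the pairs of mt-Co2 and mt-Co3, in replicate 2 alone in that of mt-Nd4l, and are too narrow to see in that of mt-Co1. The intervals hold the deposited posterior mean of TPM, which is another estimate than the TPM plotted. In the pair of mt-Co1 each TPM therefore lies above its own interval, as for mt-Co1 in replicate 1, at 2402 against 2326 to 2362.

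A search of the GENCODE M21 transcripts for other nuclear sequences, at 95% identity or more over at least 100 bases, found 5 further pseudogenes, which lie outside the rule and were looked at after the values above had been seen. They held 51 reads together in replicate 1 and 46.1 in replicate 2. Among them Gm28439 lies on chromosome 1 from 24611535 to 24612410. It thus adjoins the block of the 6 copies and overlaps Gm10222, which starts at 24612407. Gm28439 has the first 876 bases of mt-Nd4 without a mismatch. It had 10.8 reads in replicate 1 and 0 in replicate 2, against 43393 and 39770 for mt-Nd4. A copy in this place without a mismatch thus need not hold many reads. Gm13340 on chromosome 2 is 97.6% identical to mt-Co1 over all 1545 bases and had 22.5 and 27 reads.

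Between the libraries the summed levels moved little. The log2 ratio of replicate 2 over replicate 1, of TPM + 0.1, ran from -0.0219 for mt-Co3 to 0.0893 for mt-Atp8 over the 13 mRNAs, with a median of 0.0338. It was 0.0189 for mt-Rnr1 and 0.0202 for mt-Rnr2. Over the 6607 other genes with at least 1000 reads, the median was 0.0196 and the central 95% ran from -0.161 to 0.22. None of the 15 summed levels lay outside that range, against 5.02% of those genes, which the range itself fixes.

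Among the rows that have a partner, all but the copies Gm29216 and Gm10222 lay farther from 0 alone than summed. On its own row mt-Nd4l was 2.12 higher in replicate 2 on the log2 scale and mt-Co3 was at -0.259. The copy Gm10925 was at -0.264. These 3 of 21 rows lay outside the range. mt-Nd4l had 216 reads in the mean, fewer than the genes behind that range. Over the 15154 genes with at least 20 reads the central 95% ran from -0.561 to 0.568, and mt-Nd4l lay outside it as well. In each of these 3 rows the sum with the partner row lay inside.

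**Figure D3:**
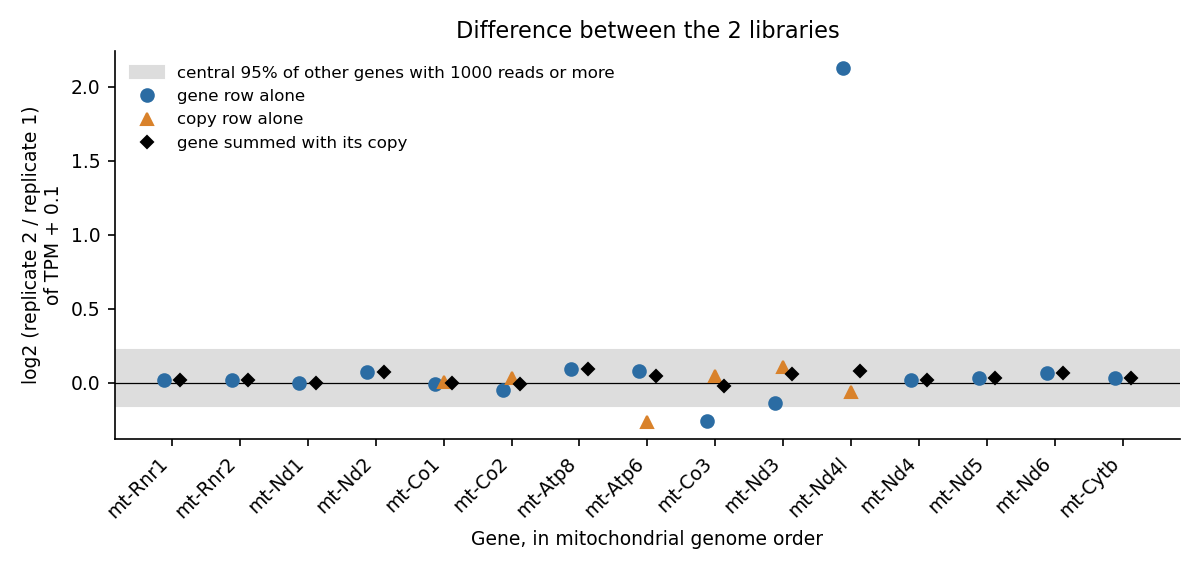
The log2 ratio of replicate 2 over replicate 1 of TPM + 0.1 is given for each gene row (blue circles), each copy row (orange triangles) and their sum (black diamonds), with the central 95% of other genes of 1000 reads or more in grey. Summed levels all lie in the grey band, and mt-Nd4l alone lies at 2.12.

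Mitochondrial subunit mRNAs were set against the nuclear mRNAs of the same complex, per length and with copies added to the mitochondrial members only. Any reads that nuclear members shared with other rows were not added back. The nuclear lists count alternative forms of a subunit as separate members, such as Cox4i1 (1384 TPM) and Cox4i2 (16.2 TPM) in complex IV. The part of either point in the ratios was not tested. In complex I the median of the 7 mitochondrial members was 960 ± 32.6 TPM, against 384 ± 2.04 TPM for 36 nuclear members, a ratio of 2.43 in replicate 1 and 2.57 in replicate 2. The nuclear list was led by Ndufc1 (1206 and 1172 TPM), Ndufab1 (1056 and 1033 TPM) and Ndufb8 (684 and 683 TPM). All 3 were above mt-Nd5, the lowest mitochondrial member, and none reached mt-Nd1.

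By mean TPM, in complexes III, IV and V every nuclear member was below every mitochondrial member. mt-Cytb stood 4.71 ± 0.0359-fold above the median of 9 nuclear members of complex III, whose highest were Uqcr10 (1321 ± 6.17 TPM), Uqcrb (915 ± 14.9 TPM) and Uqcrq (892 ± 10.6 TPM). In complex IV the ratio of medians was 6.03 ± 0.0311, with 15 nuclear members at a median of 1023 ± 6.13 TPM, led by Cox6b1 (1791 ± 49.5 TPM), Cox8a (1759 ± 8.89 TPM) and Cox6c (1622 ± 21 TPM). The complex IV ratio depended on the copies: it was 2.34 from the gene rows alone and 4.84 with the reads of each pair spread over the gene. In complex V it was 9.4 ± 0.259, against 15 nuclear members at 881 ± 4.09 TPM. The catalytic subunit Atp5b (3957 ± 3.29 TPM) was the highest of these, above Atp5g3 (1669 ± 116 TPM) and Atp5a1 (1524 ± 23.6 TPM). These are levels of RNA, compared between genes in each library, with no test since genes are not replicates.

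**Figure D4:**
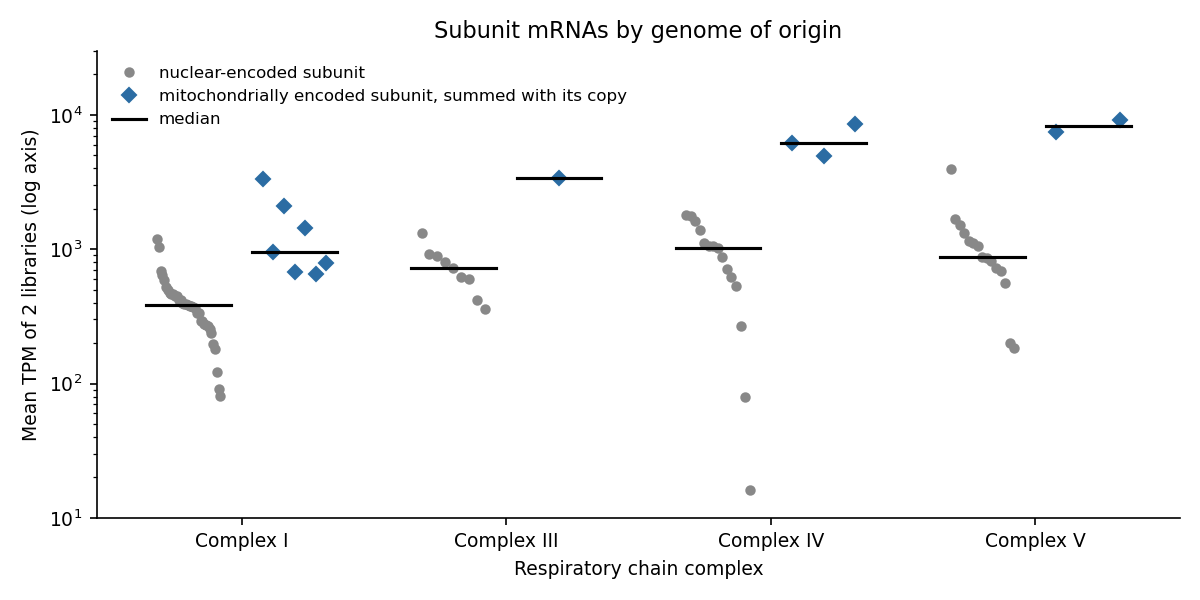
Each point is the mean TPM of a subunit mRNA over the 2 libraries, on a log axis, for nuclear genes (grey circles) and mitochondrial genes summed with their copies (blue diamonds), with medians as black lines. In complexes III, IV and V all blue points lie above the grey ones, and in complex I the ranges overlap.

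Nuclear genes that copy, transcribe and process mitochondrial DNA and RNA were all detected, at far lower levels. Every gene of these lists had at least 1 TPM in both libraries, against 57.5% of nuclear protein-coding genes, whose median was 3.64 TPM, or 18.9 TPM among those detected. The median of the 7 transcription genes was 22.1 TPM. The highest were Tfam (51.7 and 48.5 TPM), which packages mitochondrial DNA and starts its transcription, Mterf3 (42.1 and 46.6 TPM) and the polymerase Polrmt (29.1 and 29.2 TPM). The 7 replication genes had a median of 14.4 TPM, with the single-strand binding protein Ssbp1 at 86.4 ± 2.47 TPM, the DNA polymerase Polg at 25.2 ± 1.02 TPM and the nuclease Mgme1 at 17.9 ± 0.375 TPM.

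Genes that act on the RNA itself were at similar or higher levels. Processing and decay were represented by 9 genes, with a median of 24.2 TPM and the highest levels in Hsd17b10 (128 ± 1.79 TPM), a subunit of the enzyme that cuts tRNA 5′ ends, Rexo2 (71.7 ± 1.92 TPM) and Pnpt1 (39.1 ± 0.424 TPM), which degrade RNA. The 8 stability genes had a median of 44.3 TPM. Slirp (210 ± 11.8 TPM) and Lrpprc (61.3 ± 0.806 TPM), which together stabilise mitochondrial mRNAs, were in that list with Fastk (142 ± 1.27 TPM).

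For translation, all 77 mitoribosome protein genes were detected, at a median of 79.5 TPM, from Mrpl35 at 18.3 TPM to Mrpl42 at 401 TPM, with Mrps21 at 336 ± 4.55 TPM and Mrpl52 at 221 ± 0.12 TPM next below the highest. The 17 mitochondrial aminoacyl-tRNA synthetases, which charge the tRNAs that the tables cannot show, had a median of 21.1 TPM. Lars2, for leucine, stood apart from the rest of that list at 739 and 788 TPM, above Rars2 (43.9 and 50.5 TPM) and Yars2 (44.4 and 41.6 TPM). Regulators of mitochondrial content, 6 in number, had their median at 28.9 TPM and were highest in Ppargc1a (41.6 ± 1.07 TPM), Gabpa (37.1 ± 1.49 TPM) and Nrf1 (29.9 ± 1.25 TPM). Between the libraries, list medians of the log2 ratio (replicate 2 over replicate 1) over these 7 lists and the 4 complexes ran from -0.0582 for replication to 0.067 for the regulators.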

How the data were processed

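Total RNA of 2 heart libraries was measured. The build was mm10 and the annotation GENCODE M4, per the text deposited beside each table; the sources used here do not name the aligner and counter. An expected count, as deposited, need not be whole: a read that fits several genes is divided among them. Deposited TPM values are levels per effective length that have the same total in each table, and deposited FPKM values scale reads by effective length and library size. Per the file headers, posterior means, posterior SDs and TPM intervals are given beside them.

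Members and lists were chosen with earlier results of these data known. Of 43346 Ensembl rows 42462 matched GENCODE M21 (GRCm38), which gave names and coordinates; unmatched rows held 0.2% of gene reads. All 43 members matched, with the same length, and had the same reads in the transcript tables. Copies were matched to genes with blastn 2.17.0 on GENCODE M21 transcripts, and TPM or reads of gene and copy were added. Replicate ratios used log2(TPM + 0.1), a scale that understates differences of low genes. Detected means at least 1 TPM in each library. The 13 mRNAs, 2 rRNAs, 6 copies and the 3 highest genes of each nuclear list are named; the 5 further pseudogenes were looked for after values had been seen. With no read observed, up to 3 reads are possible, or 0.0896 and 0.0978 CPM of gene reads. This bound does not apply to the 22 tRNA genes, whose effective length was 0. Alternatives used edgeR 4.0.16 and DESeq2 1.42.0 scaling of rounded expected counts in R 4.3.3; other steps used matplotlib 3.10.9, biopython 1.88, scipy 1.17.1, pandas 2.3.3 and numpy 2.4.6 in Python 3.11.15. On simulated Poisson counts for 41128 genes, 200 genes with a mean of at least 1000 reads were doubled (1 on the log2 scale). Their median ratio less that of unchanged genes was 0.999, while the replicate ratios above subtract no such median. The simulation checks the calculation only, since it held no variation between replicates beyond counting and no reads divided between gene and copy.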

Additional observations from a re-analysis of the deposited data

How the results depend on the processing

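No paired analysis was possible because both libraries belong to 1 group. With all rows of the table as the denominator the mitochondrial share was 2.044% without and 2.615% with the copies; with TPM as the measure it was 4.277% and 6.012%. Posterior mean counts gave 2.158% without the copies and left the share with them at 2.715%. The rRNA share of member reads was 25.24% and the mRNA share 74.76% without the copies, and 10.15% and 89.85% as TPM. From the gene rows alone the ratio of mitochondrial to nuclear medians was 2.041 in complex I, 2.342 in complex IV and 8.938 in complex V. By reads per kilobase of annotated length it was 2.686, 5.307, 5.135 and 7.267 in complexes I, III, IV and V. With the reads of each pair spread over the gene, an alternative chosen after seeing the data, it was 4.84 in complex IV. Every such ratio stayed above 1. The median replicate ratio of all genes on the log2 scale changed sign, to -0.0057 with edgeR's TMM and -0.0040 with DESeq2's size factors; that of the 13 summed mRNAs stayed above 0, at 0.0055 and 0.0072. With each library alone, mt-Atp6 stayed the highest gene. FPKM and posterior TPM kept all 15 places in the order of levels, and reads per kilobase kept 9. The levels in FPKM and in reads per kilobase are other units and were compared by order only. The 2 libraries limit every SD given here. Among the 15 rRNAs and mRNAs, the row of mt-Nd4l alone had the fewest reads, with 87.3 in replicate 1. That number follows the division of reads with Gm10222, as the pair held 3053 reads in that library. No alternative varied depth.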
